A study of Rattus norvegicus with 20 samples.

Results

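Untransfected INS-1 832/13 cells are the cells of the series that received no siRNA. Resting is used here in that sense only, since their medium held 11.1 mM glucose. The study itself compared each silenced group with a non-targeting siRNA. INS-1 832/13 is a β-cell line cloned from the rat insulinoma line INS-1, and it also carries the human proinsulin gene. Of the 20 mRNA libraries, the 4 labelled as untransfected were taken for this profile. The other 16 libraries are 4 each of cells given a non-targeting siRNA (si-Ctrl), siRNA against *Piezo1* (si-P1), against *Piezo2* (si-P2) or against both (si-P1+2), and they serve here only as a comparison. All 5 groups are the same clone, grown in RPMI 1640 medium with 11.1 mM glucose, fetal bovine serum and β-mercaptoethanol. The transfected cells received 25 nM siRNA in repeated transfections 48 h apart, so they differ from untransfected cells in the transfection as well as in the siRNA. *Piezo1* and *Piezo2* encode mechanically gated cation channels.

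The values are normalized counts, that is, estimated reads per gene divided by a size factor of the library. They are not scaled for transcript length, so an order between genes is an order of counts, in which a long mRNA gathers more reads than a short mRNA of equal abundance. A single value per gene is the mean of the 4 untransfected libraries, and ± marks the SD (n = 4). The untransfected libraries held 18536093 to 52066167 reads, and the transfected libraries 16679934 to 56926609. Each read of an untransfected library was worth 0.604 to 1.70 normalized counts. Whether the 4 libraries come from separate cultures was not stated, so their spread may be in part technical. Replicate 3 of si-Ctrl stands apart from the other libraries, and several comparisons with transfected cells are also given without it.

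The labelled cell type was checked against 4 genes of the β cell. *Ins1* and *Ins2* encode preproinsulin, and rodents carry both genes. *Abcc8* and *Kcnj11* encode the regulatory and the pore-forming subunit of the ATP-sensitive K+ channel (KATP), which couples glucose metabolism to membrane potential. *Ins1* was at 85837, 72907, 91334 and 57283 normalized counts in replicates 1 to 4 (mean 76840 ± 15155, SD, n = 4) and ranked 27 among the 23487 genes of the table. *Ins2* was at 2849, 2738, 3081 and 2315 (rank 2458). *Abcc8* was at 8796, 6925, 8556 and 6155 (rank 678), and *Kcnj11* at 7364, 5132, 7100 and 4488 (rank 944). All 4 markers were thus present in every library. *Ins1* and *Ins2* are near-identical, so reads may be shared between them, and their ratio is uncertain. Whether reads of the human proinsulin transgene were assigned to either rat gene was not tested.

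A β cell takes up glucose, phosphorylates it and oxidizes the pyruvate that glycolysis yields. The rise in ATP closes KATP channels, the membrane depolarizes, voltage-gated Ca2+ channels open and Ca2+ triggers the fusion of insulin granules. Hormones and neurotransmitters that act on G-protein-coupled receptors raise or lower this secretion. A mature β cell is also known for genes that it keeps silent, among them the lactate exporter, the muscle and brain hexokinase, and the hormones of its islet neighbours.

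The 4 hormone genes with more than 1000 normalized counts are *Ins1*, *Iapp*, *Ins2* and *Gcg*, and the 250 bases upstream of their start sites are shown. They were searched for motifs by which insulin promoters are classically described. The sequences are those of RefSeq on the rat assembly GRCr8, which is not the assembly used for the counts (Rnor_6.0). Capitals mark the E-box CATCTG, the type of site bound by *Neurod1* heterodimers, and TAAT, the core of homeodomain sites such as those of *Pdx1*, on either strand, and overlapping TAAT matches run together. *Ins1* lies at chr1:261185869-261186118 (plus strand), *Ins2* at chr1:207273806-207274055 (minus strand), *Iapp* at chr4:176967847-176968096 (plus strand) and *Gcg* at chr3:67531534-67531783 (minus strand).
Ins1: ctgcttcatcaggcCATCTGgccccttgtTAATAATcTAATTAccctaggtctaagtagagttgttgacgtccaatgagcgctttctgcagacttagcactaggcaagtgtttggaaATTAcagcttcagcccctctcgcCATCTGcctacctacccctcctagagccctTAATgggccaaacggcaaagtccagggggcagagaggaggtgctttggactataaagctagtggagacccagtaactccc
Ins2: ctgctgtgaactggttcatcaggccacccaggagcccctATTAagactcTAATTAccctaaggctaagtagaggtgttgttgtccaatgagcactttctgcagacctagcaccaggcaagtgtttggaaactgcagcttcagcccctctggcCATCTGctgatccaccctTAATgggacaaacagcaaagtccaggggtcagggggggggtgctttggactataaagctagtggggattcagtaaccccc
Iapp: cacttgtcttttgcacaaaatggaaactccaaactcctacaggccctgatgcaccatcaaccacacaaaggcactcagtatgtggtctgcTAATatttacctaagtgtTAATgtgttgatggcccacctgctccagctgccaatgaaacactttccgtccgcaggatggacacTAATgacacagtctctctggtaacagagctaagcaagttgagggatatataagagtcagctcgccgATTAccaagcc
Gcg: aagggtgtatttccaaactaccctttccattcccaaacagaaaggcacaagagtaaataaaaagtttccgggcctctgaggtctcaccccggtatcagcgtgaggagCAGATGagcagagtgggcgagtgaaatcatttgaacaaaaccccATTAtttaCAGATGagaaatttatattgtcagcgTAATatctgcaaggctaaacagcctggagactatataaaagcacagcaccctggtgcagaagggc
The *Ins1* window held 2 E-boxes, which begin at −236 and −110 from the start site, and 6 TAAT matches. *Ins2* held 1 E-box, at −98, and 4 TAAT matches, and 86.6% of its 238 bases aligned without a gap were identical to *Ins1*. *Iapp* held no CATCTG and 4 TAAT matches, and *Gcg* held 2 of each. Of 33469 rat promoter windows of the same length, 4673 held at least 1 CATCTG, while 1.20% held at least 2, 57.0% at least 1 TAAT and 18.7% at least 3. A match is a string of letters and no evidence of binding.

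The untransfected transcriptome was broad. Of the 23487 genes, 14624 had a count above 0 in all 4 libraries, 2607 in 1 to 3 of them and 6256 in none. Genes of a mean of 10000 or more numbered 490 and held 44.1% of all normalized counts, and the 5353 genes between 1000 and 10000 held 47.9%. A further 5094 genes lay between 100 and 1000, 2303 between 10 and 100, and 3991 below 10 but above 0. The 10 highest genes held 7.59% of the counts, the 100 highest 23.7% and the 1000 highest 56.0%. Between libraries the share of the 100 highest ranged only from 22.4% to 24.5%.

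**Figure D1:**
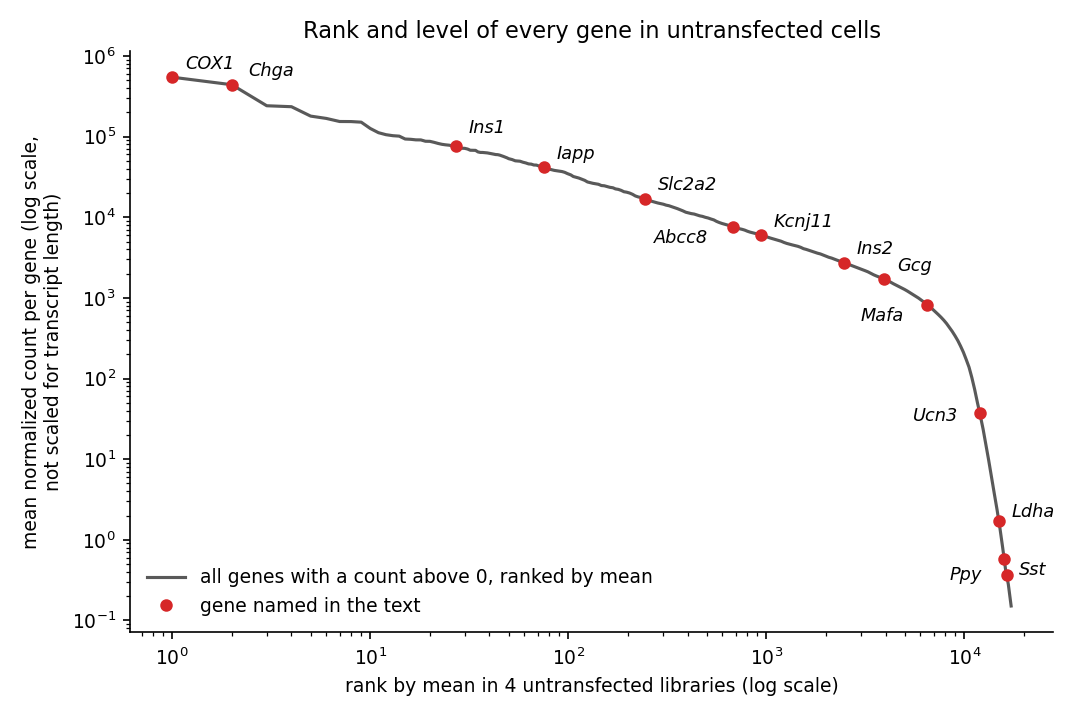
Mean normalized count of each gene in the 4 untransfected libraries (vertical, log scale, not scaled for transcript length) against its rank (horizontal, log scale), with named genes as red points. *Chga* stands at rank 2 with 439883 normalized counts, *Ins1* at rank 27, and the curve falls steeply beyond about rank 10000, where *Ucn3*, *Ldha*, *Ppy* and *Sst* lie.

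The single highest gene was *COX1*, the mitochondrially encoded subunit of cytochrome c oxidase, at 628498, 599751, 536842 and 417274 normalized counts. *Chga*, which encodes the granule matrix protein chromogranin A, followed at 426253, 442116, 457848 and 433316. Its coefficient of variation (CV, SD over mean) was 3.10%, against 17.2% for *COX1*. The 40 highest genes fell into few families. Of the other mitochondrial messages, 6 were among them (*COX3*, *ATP6*, *COX2*, *CYTB*, *ND2* and *ND1*), as were translation factors and ribosomal proteins (*Eef2*, *Eef1a1*, *Rplp0*, *Eef1g*, *Pabpc1*, *Rps4x*, *Rpl10*, *Rps2*, *Rps3a*, *Rack1*, *Rpl3*, *Rps18*, *Rpl19*). Chaperones and folding enzymes (*Hsp90ab1*, *Hsp90aa1*, *P4hb*, *Calr*), enzymes of glycolysis and lipid supply (*Eno1*, *Aldoa*, *Gapdh*, *Acly*), the tubulin *Tubb5* and the ATP synthase subunit *Atp5f1b* were there too. The secretory genes among the 40 were *Chga*, *Chgb*, *Cpe*, *Ins1* and *Nnat*. The remaining 5 were annotated loci without a gene name (*LOC100361457*, *LOC680121*, *LOC100911991*, *AABR07063424.1*, *LOC108351137*), which may be copies that share reads with other genes.

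The 13 mitochondrially encoded messages together made up 5.46%, 4.90%, 4.58% and 3.60% of the counts in replicates 1 to 4, so replicate 4 was lowest. The 87 cytosolic ribosomal protein genes made up 7.63%. The 5 granins *Chga*, *Chgb*, *Scg2*, *Scg3* and *Vgf* made up 2.13% (2.03% to 2.23% over the libraries). *Ins1*, *Ins2*, *Iapp* and *Gcg* together made up 0.391% (0.319% to 0.449%), less than the granins in every library. *Chga* alone, with 1.39% of the counts, thus exceeded the 4 hormone genes together, although counts compare the lengths of the messages as well as their number.

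The hormones of the islet separated into 3 levels. *Ins1* and *Iapp* were above 10000 normalized counts. *Iapp* encodes amylin, which is stored and released with insulin, and was at 40329, 42123, 47148 and 39070 (rank 75). *Ins2* and *Gcg* were between 1000 and 10000. *Gcg* encodes proglucagon, the hormone precursor of α cells, and was at 1924, 1414, 2245 and 1232 (mean 1704 ± 465), so replicates 1 and 3 were higher than replicates 2 and 4. In these bulk libraries, few cells with much *Gcg* mRNA and many cells with little cannot be told apart. *Npy* was at 143, 23.5, 44.8 and 35.3, and *Ucn3*, the urocortin of mature β cells, at 56.0, 24.2, 48.1 and 22.7. The hormones of δ cells and PP cells were at the level of single reads. *Sst* was at 0, 0.604, 0 and 0.841 normalized counts, and *Ppy* and *Pyy* were each at 0, 1.21, 1.12 and 0. *Ghrl*, the ghrelin gene, was listed at 0 in all 4 libraries.

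**Figure D2:**
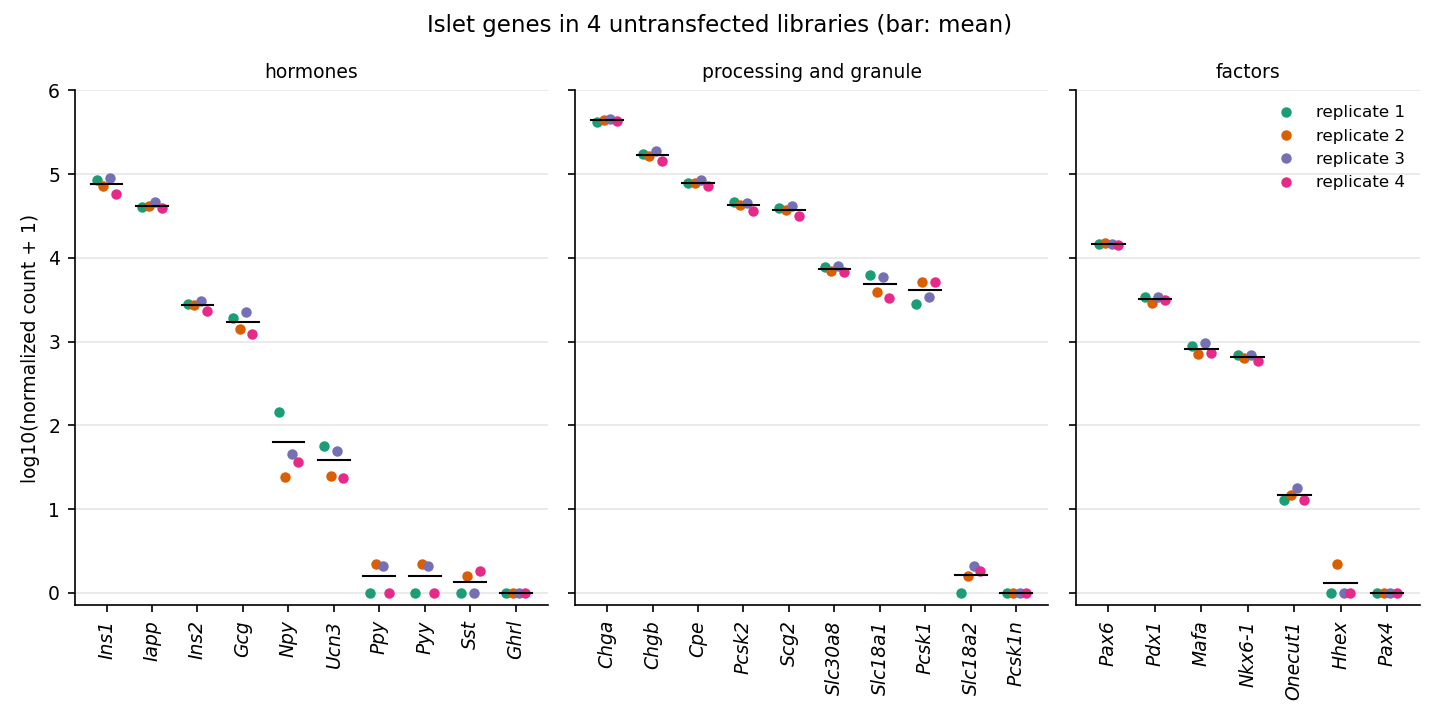
Log10 of the normalized count plus 1 (vertical) for hormone genes, processing and granule genes and transcription factors (horizontal) in the 4 untransfected libraries, 1 point per library and a black bar at the mean. *Ins1*, *Iapp*, *Ins2* and *Gcg* lie above 1000 normalized counts in all 4 libraries, while *Ppy*, *Pyy*, *Sst*, *Ghrl*, *Slc18a2*, *Pcsk1n*, *Hhex* and *Pax4* lie at or near 0.

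A value of exactly 0 is not proof of silence in this table. *Hprt1*, a housekeeping gene used as a PCR reference, was listed at 0 in all 4 libraries, as were 7 of the 87 cytosolic ribosomal protein entries (Rpl8, Rpl13, Rps20 and *Rpl21* among them), 1 of 36 subunits of respiratory complex I (Ndufa1) and 1 of 11 subunits of RNA polymerase II (Polr2h). A gene at 0 is therefore described as listed at 0, with no upper limit drawn from it.

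Among 41 precursors of other secreted peptides, 8 were at 100 normalized counts or more and 26 were under 10, of which 8 were listed at 0. *Vgf*, a granin-like precursor of several peptides, was highest at 14527, 15581, 15184 and 14783. *Nucb2*, the precursor of nesfatin, was at 12587 ± 766, *Nxph4*, a neurexophilin, at 3007 ± 321, *Adm*, the adrenomedullin precursor, at 1379 ± 253, and *Cck*, the cholecystokinin precursor, at 974 ± 212. Some gut hormones were thus represented: *Sct*, the secretin precursor, was at 212, 215, 247 and 171, and *Gast*, the gastrin precursor, at 180, 135, 237 and 125. *Tac1*, which encodes substance P, was at 164 ± 21.6. *Cartpt* was at 86.6, 39.2, 134 and 12.6, a spread of over 10-fold between libraries. Several other precursors were low or listed at 0, with the gut hormone *Gip* at 1.58, *Gal* at 0.151, and *Vip*, *Adcyap1*, *Grp*, *Crh* and *Oxt* at 0.

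Of 20 genes of prohormone processing and folding, 18 were at 100 normalized counts or more. The exopeptidase *Cpe*, which trims the basic residues left by the convertases, was at 79462, 77593, 84319 and 71688. The 2 convertases that cut proinsulin differed. *Pcsk2* was at 46305, 42731, 45708 and 36179, while *Pcsk1* was at 2842, 5195, 3400 and 5144. *Pcsk1* was lower in replicates 1 and 3 than in replicates 2 and 4, and its CV of 29.1% lay above the 95th percentile of 19.1% for the 10937 genes of a mean of at least 100. *Scg5*, the chaperone 7B2 that *Pcsk2* needs for its maturation, was at 25769 ± 1371, and *Pcsk1n*, which encodes the *Pcsk1* inhibitor proSAAS, was listed at 0. *Pam*, the amidating enzyme, was at 3732 ± 737. The endoplasmic chaperones *P4hb* (72005 ± 4715), *Hsp90b1* (45870 ± 2039) and *Hspa5* (43293 ± 1671) were among the 70 highest genes of the table, and the oxidase *Ero1b*, prominent in pancreas, was at 685 beside 4548 for *Ero1a*.

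Of 33 granule genes, 28 were at 1000 normalized counts or more and none was listed at 0. *Chgb*, which encodes chromogranin B, was at 174048, 164394, 188359 and 145239. *Scg2* was at 37710 ± 4013, the granule phosphatase-like proteins *Ptprn2* and *Ptprn*, known as islet autoantigens, at 23354 ± 3095 and 11092, *Scgn*, the Ca2+ sensor secretagogin, at 17735 ± 755 and *Resp18* at 14468 ± 2109. *Slc30a8*, the zinc transporter that loads granules for insulin crystallization, was at 7849, 6973, 7960 and 6788. The vesicular monoamine transporters split: *Slc18a1* was at 4862 normalized counts and *Slc18a2*, the form usual in β cells, at 0.641. *Syt7* (11308), a high-affinity Ca2+ sensor of exocytosis, and *Syt4* (2223) were present, and *Syt9* was at 670.

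Of 64 genes of docking, priming and fusion, 44 were at 100 or more and 11 under 10. *Rab3d* was at 8477, 8664, 8586 and 8460, which gave a CV of 1.12%, and *Rab3b* at 7508 ± 516. The SNARE proteins of insulin release were *Vamp2* at 4267 ± 335, *Vamp3* at 4085 ± 415, *Snap25* at 2456 and *Stx1a* at 1645. Complexin was mostly *Cplx2* (6947 ± 863) beside *Cplx1* (948). Among synaptotagmins outside the granule list, *Syt13* (2718) and *Syt11* (1673) were high, and *Syt1* and *Syt2*, the fast sensors of neurons, were at 27.2 and 7.07. The priming factor *Unc13b* (1161) exceeded *Unc13a* (601), and *Rims2* (1981) exceeded *Rims1* (58.2).

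Glucose entry in these cells was carried, in counts, by the transporter of the rodent β cell. The low-affinity transporter *Slc2a2* (GLUT2) was at 13705, 19123, 15930 and 19002, and *Slc2a1* (GLUT1) at 4183, 5617, 4232 and 4778. *Slc2a1* was thus lower than *Slc2a2* in every library, and both were lower in replicates 1 and 3 than in 2 and 4. *Slc2a3* (GLUT3) was listed at 0. Of the hexokinases other than glucokinase, whose level is not reported here, *Hk2*, a high-affinity form, was at 17.5 ± 7.56. *Hk3* was at 1.78, and *Hk1* was listed at 0. The KATP subunits *Abcc8* (7608 ± 1276) and *Kcnj11* (6021 ± 1427) were higher in replicates 1 and 3 than in 2 and 4, and of the vascular KATP subunits *Abcc9* was at 4.79 and *Kcnj8* was listed at 0. The glucose-6-phosphatase G6pc2 and the hexokinase Hkdc1 were not analysed here.

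Of 24 glycolytic genes, 10 were at 10000 normalized counts or more. *Eno1* (101353 ± 5679), *Aldoa* (84913 ± 7654), *Gapdh* (63574 ± 5679) and *Pkm* (49868 ± 1567) led. All 3 phosphofructokinases were present, with *Pfkl* at 19097, 19229, 19344 and 19459, a CV of 0.805%, above *Pfkp* (10109) and *Pfkm* (7013). The route from pyruvate to lactate was sparse. *Ldha*, the lactate dehydrogenase that β cells repress, was at 5.09, 0.604, 1.12 and 0, and *Ldhb* was at 302, 311, 333 and 383. Of the monocarboxylate transporters, *Slc16a1* (MCT1), likewise repressed in β cells, was at 426 ± 36.6, *Slc16a7* (MCT2) at 810 and *Slc16a3* (MCT4) at 0.210.

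Pyruvate entry and the citric acid cycle were by contrast uniformly present: of 47 genes, 45 were at 100 or more and 39 at 1000 or more. *Pc*, pyruvate carboxylase, which feeds pyruvate into the cycle as oxaloacetate, was at 15364, 17670, 15356 and 18570. *Acly*, which cleaves exported citrate, was at 82207, 87343, 82616 and 98126, and ranked 19. *Mdh1* (12400 ± 1001), *Got2* (11406 ± 773) and *Mdh2* (11351 ± 701), all of the malate-aspartate shuttle, were above 10000. The glycerol phosphate shuttle was present as *Gpd1* (5306) and *Gpd2* (2503). The malic enzymes were ordered *Me1* (7635), *Me2* (2183) and *Me3* (574). *Pck2*, the mitochondrial phosphoenolpyruvate carboxykinase, was at 1643, and the cytosolic *Pck1* at 0.424. Among the kinases that inhibit pyruvate dehydrogenase, *Pdk1* (2436) and *Pdk3* (1433) exceeded *Pdk2* (339), and *Pdk4* was listed at 0.

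*Glud1*, glutamate dehydrogenase, was at 17680, 17546, 18171 and 17538, with a CV of 1.69%. The amino acid transporter *Slc7a5* was at 13199 ± 1265 and glutamine synthetase, *Glul*, at 6863 ± 1215. Both GABA-forming enzymes were listed above 0, with *Gad1* (1514 ± 54.2) higher than *Gad2* (225), whose product GAD65 is an islet autoantigen. The vesicular transporters of GABA (*Slc32a1*, 0.151) and of glutamate (*Slc17a6*, 0.572, and *Slc17a7*, 136) were lower.

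**Figure D3:**
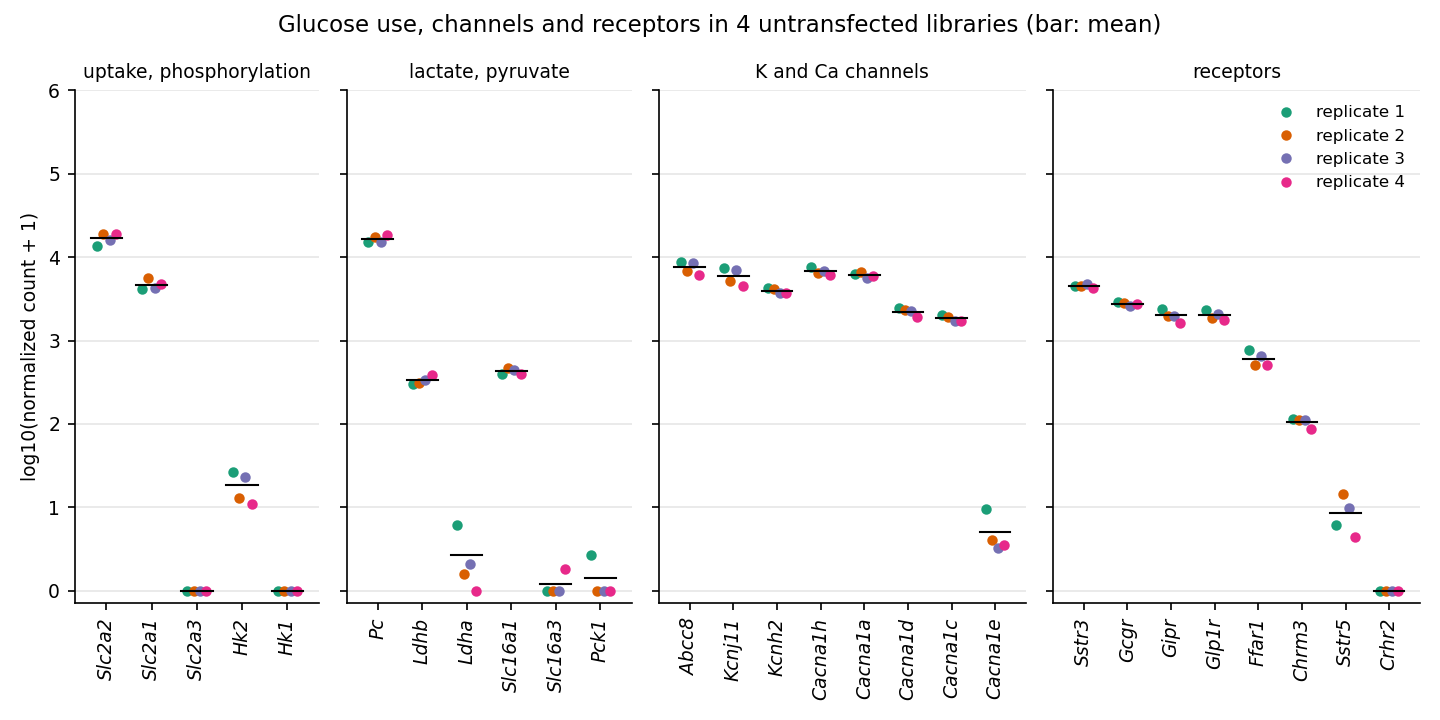
Log10 of the normalized count plus 1 (vertical) for genes of glucose uptake and phosphorylation, lactate and pyruvate handling, K+ and Ca2+ channels and receptors (horizontal) in the 4 untransfected libraries, 1 point per library and a black bar at the mean. *Slc2a2*, *Pc*, *Abcc8* and *Kcnj11* lie above 1000 normalized counts, whereas *Slc2a3*, *Hk1*, *Slc16a3*, *Pck1* and *Crhr2* lie at or near 0.

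The Ca2+ channel pore subunits of the line were not a single type. *Cacna1h*, a low-voltage-activated T-type pore, was highest at 7708, 6535, 6863 and 6111, followed by *Cacna1a*, the P/Q-type pore, at 6306, 6702, 5608 and 5931. The ranges of these 2 genes overlapped. The L-type pores *Cacna1d* (2232 ± 236) and *Cacna1c* (1843 ± 160), which carry most of the glucose-evoked Ca2+ current in rodent β cells, were lower than both in every library, and also overlapped each other. *Cacna1b*, the N-type pore, was at 757 ± 133, *Cacna1g* at 189 and *Cacna1e*, the R-type pore, at 4.07. The auxiliary subunit *Cacnb3* was at 17292 ± 595, above *Cacnb2* (688 ± 83.1), and *Cacna2d1* was at 2986 ± 260. Of 25 such genes, 15 were at 100 or more and 6 under 10.

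Of 15 Na+ channel genes, 5 were at 100 or more. The pore *Scn3a* was at 1774, 1795, 1860 and 1746 and the auxiliary *Scn3b* at 2270, 1735, 1968 and 1583. *Scn8a* (316 ± 29.1), *Scn7a* (250 ± 4.91) and *Scn2a* (172 ± 12.4) were lower, *Scn9a* was at 9.88, and *Scn10a*, *Scn11a*, *Scn2b* and the leak channel *Nalcn* were listed at 0.

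Of 72 K+ channel genes, 8 were at 1000 or more, 25 under 10 and 13 of these listed at 0. *Kcnh2*, which encodes the hERG channel, was highest at 4221, 4121, 3772 and 3703. *Kcnk16*, the 2-pore channel TALK-1 typical of β cells, was at 3413, 2687, 3325 and 2823. *Kcna2* (2101 ± 131), *Kcnh6* (1512 ± 252), *Kcna6* (1500 ± 151), *Kcnk1* (1487 ± 89.8), *Kcnk3* (1317 ± 98.2) and the large-conductance Ca2+-activated *Kcnma1* (1231 ± 160) followed. Intermediate-conductance *Kcnn4* was listed at 0.

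Among 49 other channels, the pacemaker channels *Hcn4* (7027 ± 791) and *Hcn2* (3500 ± 152) stood at the top, with *Hcn3* at 519. The osmosensitive *Tmem63b* (4693 ± 197), *Tmem63a* (4610 ± 261) and *Tmem63c* (1535 ± 23.4) were all above 1000. Of the volume-regulated anion channel, the accessory subunits *Lrrc8d* (2740 ± 132), *Lrrc8b* (1254 ± 31.7) and *Lrrc8c* (384) were present with the obligatory subunit *Lrrc8a* (638), and *Lrrc8e* was at 6.80. *Piezo1* was at 310 ± 30.4 and *Piezo2* at 11.5. The TRP channels were led by *Trpm7* (1865 ± 148) and *Trpm2* (1079), whereas *Trpm4* (83.2) and *Trpm5* (34.4), the Ca2+-activated TRP channels studied in β cells, were low. *Ano1* was at 7.02 and *Cftr* was listed at 0.

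The Ca2+ stores of the line were represented by *Atp2a3* (SERCA3) at 29880, 28412, 29208 and 23267, *Atp2a2* (SERCA2) at 19313, 20261, 19902 and 19672, and the inositol trisphosphate receptors *Itpr3* (6262 ± 447) and *Itpr1* (4615 ± 216), with *Itpr2* at 33.0. *Ryr2* was at 2356, above *Ryr1* (180) and *Ryr3* (22.2). Store-operated entry was present as *Stim1* (2460) and *Stim2* (1691) with *Orai2* (1357), *Orai3* (777) and *Orai1* (573). The uniporter *Mcu* was at 747 and its regulator *Micu2* at 1532. Of 26 Ca2+ handling genes, none was under 10.

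Of 98 receptor genes of β-cell signalling, 48 were at 100 or more, beside 10937 of the 23487 genes of the table. A further 37 receptor genes were under 10, and 18 of these were listed at 0. The incretin receptors were near-equal in counts, with *Glp1r* at 2000 and *Gipr* at 2003 normalized counts, and *Gcgr*, the glucagon receptor, at 2888, 2816, 2633 and 2759. The somatostatin receptor was mostly *Sstr3* (4543, 4474, 4741 and 4305), with *Sstr1* at 171, *Sstr2* at 133 and *Sstr5* at 7.67. Inhibitory receptors also included *Gabbr2* (3889 ± 241), *Gabbr1* (1167), *Adora1* (2951 ± 120), *Drd2* (1067) and *Adra2a* (231). The muscarinic receptors were *Chrm4* (939) above *Chrm3* (105), the Gq-coupled form that drives insulin release in islets. The fatty acid receptor *Ffar1* was at 608 and *Ffar3* at 900, *Gpr119* at 399 and *Ffar4* at 159. The growth factor receptors *Igf2r* (11303 ± 932), *Fgfr1* (6421 ± 884), *Ghr* (2437), *Insr* (1405) and *Prlr* (674) exceeded *Igf1r* (108). *Igf1r* was the lower of the insulin and insulin-like growth factor receptors, and *Egfr* was at 72.6. Cytokine receptors were present as *Il6r* (2478 ± 434), *Ifngr1* (1923), *Tnfrsf1a* (1258) and *Il1r1* (615). *Crhr1* was at 793, while *Crhr2*, *Mtnr1b*, *Ghsr* and *Adrb1* were listed at 0.

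Of 27 transcription factors of the β cell, 23 were at 100 or more and 1, *Pax4*, was listed at 0. *Pax6* was highest at 14814, 15297, 14885 and 14101, and *Etv1* was close to it at 14258, 13461, 14340 and 13708. *Pdx1*, which drives insulin transcription, was at 3425, 2873, 3463 and 3140, and *Neurod1* at 2630. *Foxa2* (3574 ± 156), *Rfx6* (3126 ± 82.2), *Hnf4a* (2163), *Isl1* (2138) and *Nkx2-2* (1332) were also above 1000. *Nkx6-1* (649) and *Mafa* (824), both tied to the mature state, were lower. *Foxa1* (85.6) and *Onecut1* (13.6) were low. Insm1 and Mlxipl were not analysed here.

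Of 19 genes tied to β-cell maturity, 17 were at 100 or more. *Nnat*, which encodes the imprinted proteolipid neuronatin, was at 83141, 76989, 90509 and 78432 and ranked 22, *Cdh1* was at 24279 ± 733, *Ppp1r1a* at 5271 ± 438 and the gap junction gene *Gjd2* at 2494 ± 317. The exceptions were *Ucn3* (37.8 ± 16.9) and *Trpm5* (34.4).

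Of 20 genes typical of other islet cells, 5 were at 100 or more, 8 were above 0 and under 10, and 6 were listed at 0. *Gc*, the vitamin D binding protein of α cells, was at 22503, 19851, 23658 and 16528, *Gcg* was as given above, and *Fev* was at 297. Among other α-cell genes *Ttr* was at 2.63 and *Irx1* at 2.26, and *Irx2* and *Pou3f4* were listed at 0. *Hhex*, the factor of δ cells, was at 0.302. Among 16 genes of progenitors and other endoderm, 4 were at 100 or more, among them *Sox9* (439 ± 91.5), *Hes1* (386) and *Afp* (246). *Neurog3*, the endocrine progenitor factor, and *Aldh1a3* were listed at 0.

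The set of 24 genes that β cells keep repressed was not silent throughout: 15 were at 100 or more, 5 were above 0 and under 10, and 2 were listed at 0. *C1qbp* (6889 ± 313), *Oat* (2049), *Dapk3* (1831), *Mgst1* (1514) and *Tgm2* (1404) were above 1000. *Cat*, the catalase gene, was at 926 ± 53.6 and *Pdgfra* at 143. In contrast, *Rest* was at 4.26, *Ldha* at 1.70, *Maf* at 1.29 and *Fcgrt* at 0.711, and *Hk1* and *Yap1* were listed at 0. Of 35 markers of non-endocrine cells, 20 were above 0 and under 10, 8 were listed at 0 and 2 were at 100 or more, of which *Krt7* (1756, 1549, 1857 and 1337) was the higher. Their summed level was 1609 to 2167 normalized counts per library, most of it *Krt7*. The acinar genes *Prss1*, *Cpa1* and *Pnlip*, the macrophage gene *Aif1* and the fibroblast gene *Lum* were listed at 0. The acinar genes *Ctrb1* (19.0) and *Cela3b* (20.1) were low but above 0 in every library.

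Untransfected cells carried a proliferation profile. Of 37 cell cycle genes, 32 were at 100 or more. *Top2a* was at 8903, 10961, 9077 and 12604, *Mcm6* at 10171 ± 818, *Pcna* at 9078 ± 1073, *Mki67* at 6995, 9854, 6829 and 10208 and *Cdk1* at 5254 ± 1141. *Cdk4* (6766 ± 207) was present while *Cdk6* was at 2.89. *Ccnd3* (2000) exceeded *Ccnd2* (181) and *Ccnd1* (122), although *Ccnd2* is the D-type cyclin of rodent β cells. The inhibitors *Cdkn2a* and *Cdkn2b* were listed at 0, *Cdkn1b* was at 1998 and *Cdkn1a* at 1218.

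Stress genes were present at rest. *Atf4* was at 12847 ± 873, *Hyou1* at 10018 ± 491, *Asns* at 7220 ± 483, *Xbp1* at 4173 ± 494, *Ddit3* (CHOP) at 3307 ± 551 and *Trib3* at 3188 ± 349. *Txnip*, which glucose induces in β cells, was at 7562, 6671, 7613 and 7499, and its relative *Arrdc4*, also induced by glucose, at 6971 ± 572. Of 32 interferon response genes, 14 were at 100 or more, led by *Ifi27* (7712 ± 1168), whereas *Isg15* (1.02), *Ifit1* (0.280) and *Ifit3* (0.877) were near 0.

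The 4 untransfected libraries agreed closely. Over the genes counted in all 4, log2 values correlated at 0.990 to 0.995 across genes in 6 pairs, and genes are not independent replicates. The median CV of the 10937 genes of a mean of at least 100 was 6.88%, with 2.20% at the 5th and 19.1% at the 95th percentile. The 10 most variable of these genes had CVs of 66.0% to 200%. Most of them were loci that may share reads with near-identical copies: the pseudogene *AABR07026317.1*, counted in replicate 4 alone (639), *Rps15al4*, *LOC100911917*, *LOC103689999*, *LOC103693563* and *LOC100910130*. The named genes were *Pcdh10*, a protocadherin, at 2891, 1844, 515 and 931, *Haus1* at 56.0, 278, 85.1 and 300, *Echs1* at 102, 273, 57.1 and 295, and an entry of *Map2k3*, a symbol listed more than once, at 857, 254, 139 and 566.

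Part of the spread followed the replicate number. Replicates 2 and 4 held more cell cycle mRNA than replicates 1 and 3, with sums over the 37 genes of 122269 and 131837 normalized counts, and 106291 and 108859 in replicates 1 and 3. They held less *Ins1*, *Gcg* and *Egr1*, an immediate early gene at 3487, 986, 2468 and 1470. The same order was seen in transfected cells: replicates 2 and 4 were both above 1 and 3 in all 4 siRNA groups for the cell cycle sum and for *Mki67*, and both below in all 4 for *Ins1*, *Ins2*, *Gcg*, *Egr1* and *Pcsk2*. For *Pcsk1* the order held in 2 of the 4 siRNA groups. This order was noticed in the data and carries no test. Among untransfected libraries replicates 2 and 4 were also the deepest (52066167 and 37202492 reads). In si-P1 replicate 2 had 17535203 reads and replicate 1 had 37409658. The part of depth in this order was not tested. What the number stands for was not stated.

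**Figure D4:**
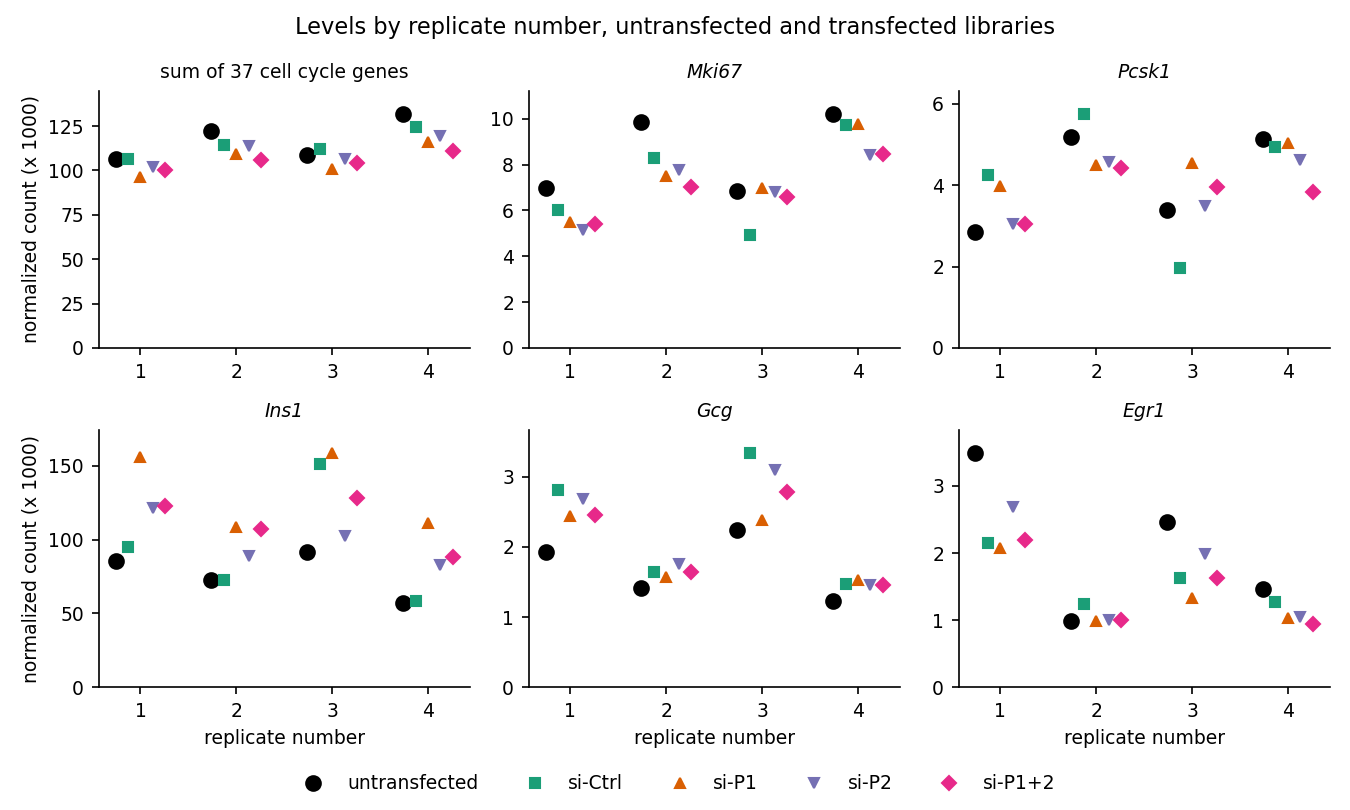
Normalized counts divided by 1000 (vertical, from 0) by replicate number (horizontal) for the sum of 37 cell cycle genes and for *Mki67*, *Pcsk1*, *Ins1*, *Gcg* and *Egr1*, with untransfected libraries as black circles left of the 4 siRNA groups. Replicates 2 and 4 lie above 1 and 3 for the cell cycle sum and *Mki67* in every group, and below them for *Ins1*, *Gcg* and *Egr1*.

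How far the resting profile differs from that of transfected cells was tested with limma on log2(normalized count + 1), as untransfected minus the unweighted mean of the 4 siRNA groups. Of 15802 genes tested, 1091 (6.90%) passed a Benjamini-Hochberg adjusted p of 0.05. Of these, 390 (2.47%) were higher and 701 (4.44%) lower in untransfected cells. The changes were small, with a median size of 0.32 on the log2 scale among the genes called, and 58 exceeded 1. With the replicate number as a block, 2484 genes (15.7%) passed, 1032 (6.53%) higher and 1452 (9.19%) lower in untransfected cells, and these held all 1091. Without replicate 3 of si-Ctrl 2410 (15.3%) passed, 1099 (6.98%) higher and 1311 (8.33%) lower. Without replicates 1, 2, 3 or 4 of untransfected cells 633, 461, 622 and 560 passed. The transfected side includes the Piezo knockdowns, so the contrast is not that of transfection alone. Against si-Ctrl alone 14 genes passed (0.0886%), 207 (1.31%) with the replicate block and 33 (0.210%) without replicate 3 of si-Ctrl.

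Of the genes called, 76 of at least 100 normalized counts had no overlap between the 4 untransfected and the 16 transfected libraries, 22 higher and 54 lower in untransfected cells. Among those higher, the difference was largest for *Atf7ip2*, at 314, 338, 378 and 335 in untransfected cells against 154 to 312 (median 227) in transfected cells, a log2 difference of 0.61 ± 0.14 (SE, adjusted p = 0.0128). *Vopp1* (0.45), *Rap1gds1* (0.41), *Cdk16* (0.36), *Epas1* (0.35), *Rhot1* (0.32), *Mb21d2* (0.31), *Cs* (0.28), *Spats2l* (0.22), *Fyn* (0.21), *Siah1* (0.21) and *Naa40* (0.21) followed on the log2 scale. The siRNA groups were not alike for all of them. *Cdk16*, a cyclin-dependent kinase, was at 4444 in untransfected cells, 3988 in si-Ctrl, 2707 in si-P1, 4261 in si-P2 and 3097 in si-P1+2. *Rap1gds1*, a guanine nucleotide exchange factor, was at 2322 in untransfected cells, 2133 in si-Ctrl, 1285 in si-P1, 2182 in si-P2 and 1593 in si-P1+2. *Epas1*, a hypoxia-inducible factor, was at 8734, 8831, 8276 and 8587 in untransfected cells against 5995 to 7911 (median 6728) in transfected cells (0.35 ± 0.06, SE, adjusted p = 0.000962). *Cs*, citrate synthase, was at 7919, 7854, 8208 and 8003 in untransfected cells against 5079 to 7771 (median 6668). None of the 12 higher genes named here passed against si-Ctrl alone, *Atf7ip2* (adjusted p = 0.366) and *Epas1* (0.226) included. Against si-Ctrl with the replicate block *Vopp1*, *Mb21d2* and *Naa40* passed, and without replicate 3 of si-Ctrl none did. When untransfected replicates 1, 2, 3 and 4 were left out in turn, 4, 5, 5 and 3 of the higher genes did not pass.

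Among those lower in untransfected cells *Gcnt3*, a glycosyltransferase of mucin synthesis, had the largest difference. It was at 18.7, 26.6, 38.1 and 48.8 in untransfected cells against 59.9 to 347 (median 151) in transfected cells, a log2 difference of −2.16 ± 0.20 (SE, adjusted p = 1.18e-05). Its mean was 33.0 in untransfected cells, 91.7 in si-Ctrl, 297 in si-P1, 76.2 in si-P2 and 208 in si-P1+2. Against si-Ctrl alone the difference was −1.49 and still passed (adjusted p = 0.022). *Satl1* (−1.01), *Sdcbp2* (−0.90), *Smim5* (−0.85), *Hepacam2* (−0.78), *Tubb2a* (−0.66), *Cdhr2* (−0.61), *Tppp3* (−0.58), *Arg1* (−0.57), *Faim2* (−0.54), *PCOLCE2* (−0.53) and *Pbld1* (−0.52) followed on the log2 scale. *Hepacam2*, a cell adhesion gene, was at 2041, 1994, 2449 and 2018 in untransfected cells against 2650 to 5829 (median 3560) in transfected cells. Of these 12, *Satl1* and *Pbld1* also passed against si-Ctrl alone, and the other 9 besides *Gcnt3* did not. Against si-Ctrl with the replicate block 6 of those 9 passed, *Hepacam2* (adjusted p = 0.000305), *Arg1*, *Tppp3*, *Faim2*, *Smim5* and *Tubb2a*, and without replicate 3 of si-Ctrl *Tppp3* (0.0451) and *Faim2* (0.00614) passed.

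**Figure D5:**
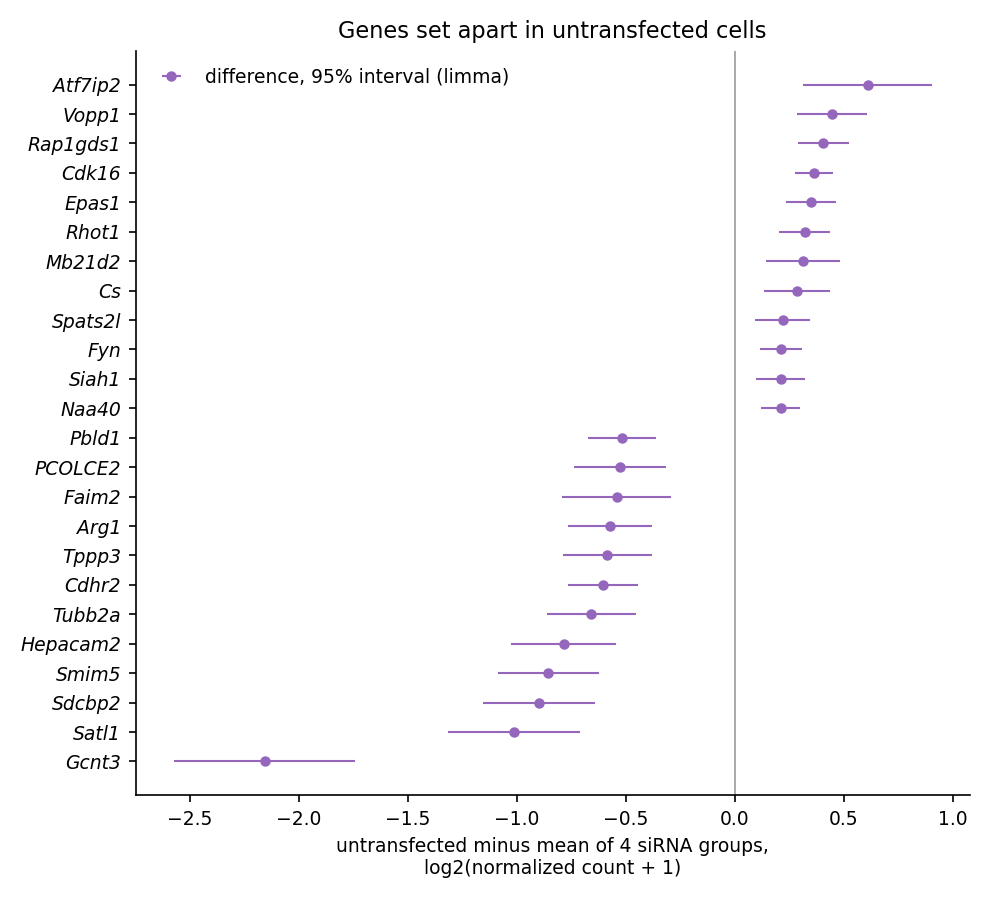
Difference between untransfected cells and the mean of the 4 siRNA groups on the scale of log2(normalized count + 1) (horizontal) with its 95% interval from limma, for the 12 genes higher and the 12 lower in untransfected cells (vertical). The differences run from −2.16 for *Gcnt3* to 0.61 for *Atf7ip2*.

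Of 7 islet hormone genes 0 passed in the limma fit and 0 by edgeR, 1 (*Iapp*) passed by DESeq2, and 2 had an unadjusted p below 0.05. Over all 15802 genes tested, 1601 passed by DESeq2 and 3302 had an unadjusted p below 0.05 in the limma fit. *Ins1* averaged 76840 ± 15155 in untransfected cells and 109638 ± 29164 in transfected cells (SD, n = 4 and 16), a log2 difference of −0.49 ± 0.18 (SE, adjusted p = 0.124), and *Iapp* differed by −0.22 ± 0.07 (SE, adjusted p = 0.0547). Without replicate 3 of si-Ctrl, *Iapp* passed (adjusted p = 0.0228) and *Ins1* did not (0.0535). With the replicate block both passed as lower in untransfected cells (adjusted p = 0.00357 for *Ins1* and 0.00451 for *Iapp*), as did *Gcg* (−0.32, adjusted p = 0.000872), *Abcc8* (−0.24, adjusted p = 0.000296) and *Ucn3*. Of the 7 hormone genes, 4 were lower with the block, beside 9.19% of all genes. Against si-Ctrl alone neither insulin gene passed (adjusted p = 0.686 for *Ins1*), and without replicate 3 of si-Ctrl that difference of *Ins1* was 0.03. *Chga* (−0.11) and *Chgb* (0.05) did not pass with or without the block.

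Among the 28 other peptide precursors tested, 5 were lower and 0 higher in untransfected cells, with a median difference of −0.27 beside 0.01 over all genes tested, of which 4.44% were called lower. Under the replicate block 8 were lower, beside 9.19% of all genes, and 6 without replicate 3 of si-Ctrl, beside 8.33%. *Gast* was at 180, 135, 237 and 125 in untransfected cells against 172 to 4468 (median 1000.4) in transfected cells (−2.40 ± 0.28, SE, adjusted p = 6.66e-05), and the ranges overlapped. Its mean was 169 in untransfected cells, 273 in si-Ctrl, 2955 in si-P1, 471 in si-P2 and 1909 in si-P1+2. *Cartpt* had the same form, with 68.2 in untransfected cells, 132 in si-Ctrl, 2042 in si-P1, 272 in si-P2 and 1215 in si-P1+2 (−3.25 ± 0.51, SE, adjusted p = 0.00096). *Nucb2* (−0.37), *Tac1* (−0.83) and *Vgf* (−0.29) were also lower. Of 33 granule genes, 2 were higher (*Syt4* and *Syt9*) and 9 lower (*Scg2*, *Scg3*, *Ptprn*, *Syp*, *Atp6ap1*, *Cltrn*, *Tmem163*, *Vgf* and *Nucb2*), with a median of −0.14, beside 2.47% of all genes higher and 4.44% lower. With the block 2 were higher and 12 lower (all genes 6.53% and 9.19%), and without replicate 3 of si-Ctrl 4 and 12 (6.98% and 8.33%). Of 19 processing genes, *Pam* (−0.74), *Ctsl* (−0.21) and *Furin* (−0.16) were lower, beside 4.44% of all genes. With the block 4 were lower (all genes 9.19%). *Nnat* was at 83141, 76989, 90509 and 78432 in untransfected cells against 87442 to 170590 in transfected cells (−0.63 ± 0.11, SE, adjusted p = 0.00267).

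None of the 11 glucose sensing genes, 23 Ca2+ channel genes or 9 Na+ channel genes passed in the limma fit. At an unadjusted p of 0.05 they numbered 3, 6 and 1, beside 3302 of all 15802 genes tested. With the replicate block 15.7% of all genes passed. These held 3 glucose sensing genes, *Slc2a1* as higher and *Abcc8* and *Kcnj11* as lower in untransfected cells, 3 Ca2+ channel genes and 0 Na+ channel genes. Without replicate 3 of si-Ctrl 15.3% of all genes passed. These held 0 glucose sensing genes, 1 Ca2+ channel gene (*Cacnb3*, higher in untransfected cells) and 2 Na+ channel genes (lower, *Scn3a* among them). By edgeR on the recovered reads 0, 0 and 0 passed, as they did by DESeq2. Of 57 K+ channel genes, 4 were higher (*Kcna2*, *Kcnj4* and *Kcnk12* among them) and 3 lower (*Kcnd1*, *Kcnk16* and *Kcnq1*) in untransfected cells, beside 2.47% and 4.44% of all genes. Under the block 9 were higher and 6 lower (all genes 6.53% and 9.19%), and without replicate 3 of si-Ctrl 7 and 6 of 56 (6.98% and 8.33%). Of the 45 genes of pyruvate entry and the citric acid cycle, 5 were higher (*Acly*, *Cs*, *Me2*, *Me3* and *Pdk3*) and 2 lower (*Idh1* and *Mpc1*), beside the same 2.47% and 4.44%. These were 6 and 6 with the replicate block (all genes 6.53% and 9.19%), and without replicate 3 of si-Ctrl 5 and 5 (6.98% and 8.33%). *Ldhb* was at 302, 311, 333 and 383 in untransfected cells against 333 to 1209 in transfected cells (−0.98 ± 0.12, SE, adjusted p = 0.000124), and the difference against si-Ctrl alone was −1.05 (adjusted p = 0.00577). It was the single glycolytic gene of 20 to pass in this fit. Under the block 1 was higher and 3 lower (all genes 6.53% and 9.19%). Without replicate 3 of si-Ctrl 2 were higher and 2 lower (all genes 6.98% and 8.33%), *Ldhb* among the lower each time. Of 34 cell cycle genes only *Top2a* passed, higher in untransfected cells, beside 2.47% of all genes. *Top2a* was at 10386 beside 10117 in si-Ctrl, 4621 in si-P1, 10301 in si-P2 and 5333 in si-P1+2. With the replicate block 7 cell cycle genes passed, and 6 without replicate 3 of si-Ctrl, all higher in untransfected cells (all genes 6.53% and 6.98% higher). Of 29 stress genes 0 passed in the limma fit, 0 by edgeR and 1 by DESeq2. Of these 29, 11 had an unadjusted p below 0.05, beside 3302 of all 15802 genes tested. With the block 9 were higher, *Atf4*, *Ddit3*, *Trib3* and *Egr1* among them, and 2 lower (*Hyou1* and *Xbp1*), beside 6.53% and 9.19% of all genes. Without replicate 3 of si-Ctrl 2 were higher and 0 lower (all genes 6.98% and 8.33%).

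Of 30 interferon response genes, 5 were lower and 0 higher in untransfected cells (*Ifi27*, *Isg15*, *Oas1a*, *Parp14* and *Rsad2*), with a median of −0.10, beside 4.44% of all genes called lower. With the replicate block 8 were lower and 1 higher (all genes 9.19% and 6.53%), and 9 were lower without replicate 3 of si-Ctrl (8.33%). *Ifi27* was at 6433, 7909, 7295 and 9211 in untransfected cells against 6622 to 13739 in transfected cells (−0.40 ± 0.11, SE, adjusted p = 0.0406). Its mean was 10398 in si-Ctrl, 12356 in si-P1, 7653 in si-P2 and 10901 in si-P1+2. *Parp14* was at 206 in untransfected cells, 159 in si-Ctrl, 464 in si-P1, 210 in si-P2 and 339 in si-P1+2. *Oas1a* averaged 50.3 in untransfected cells and 68.9 to 105 in the siRNA groups. *Isg15* (1.02 in untransfected and 3.41 in transfected cells) and *Rsad2* (5.25 and 10.4) were low in both. Against si-Ctrl alone 0 of the 30 passed, and over all 25 lists *Ldhb* was the single gene that did. Others passed against si-Ctrl with the replicate block, *Gcg*, *Ptprn* and *Kcnk16* among them. Of 22 non-endocrine markers, *Krt7* (−0.51), *Ctrb1* (−1.37) and *Cela3b* (−0.81) were lower, and 3 higher, *Pdgfrb* and *S100b* among them (all genes 4.44% lower and 2.47% higher). In untransfected cells all of these named markers but *Krt7* were below 100 normalized counts, and *Ctrb1* averaged 113 in si-P1. The summed level of these markers was 1609 to 2167 in untransfected cells and 1840 to 3521 in transfected cells, and its part in the results was not tested. *Piezo1* was at 310 ± 30.4 in untransfected cells beside 313 in si-Ctrl, 125 in si-P1, 348 in si-P2 and 127 in si-P1+2. It passed as higher in untransfected cells (0.60, adjusted p = 0.000613), beside groups that carry siRNA against it, and against si-Ctrl alone its difference was −0.02 (adjusted p = 0.954).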

How the data were processed

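The profile rests on 4 libraries of untransfected INS-1 832/13 cells, grouped by the GEO labels, out of 20 libraries in 5 groups of 4. RNA was isolated with RNeasy columns and sequenced as stranded mRNA libraries on a NextSeq. Per the submitters' processing notes and the study's methods, the authors used FastQC 0.11.8, MultiQC 1.7, Salmon 0.14.0 on Rnor_6.0 and DESeq2 1.25.10. The deposited signal is a normalized count per gene, an estimated count divided by a size factor of DESeq2. How transcripts were summed to genes is not given in the sources used here. All values of all 20 libraries were whole multiples of 1 read (100% within 0.001), so the depth of each library was recovered from them.

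Means, SDs and ranks were computed from the 23487 genes of the table. The comparison used limma 3.58.1 in R 4.3.3 on log2(normalized count + 1), with 5 group means, a trend in the variance, 15 residual degrees of freedom and genes above 0 in at least 50% of libraries, and edgeR 4.0.16 on the recovered reads called 1049 genes. DESeq2 1.42.0 was a further alternative. Fold changes on this scale understate those of low genes. Whether libraries of 1 group are separate cultures was not stated, so p-values measure the spread between these samples. Same-numbered libraries deviated together from their group means: correlations of untransfected with transfected libraries were 0.199 to 0.457 for si-Ctrl, 0.167 to 0.484 for si-P1, 0.190 to 0.492 for si-P2 and 0.240 to 0.497 for si-P1+2. The fit with the number as a block is therefore given as well. The own number was the best match for 4 of 4 untransfected libraries in si-Ctrl, 3 in si-P1, 2 in si-P2 and 3 in si-P1+2. Other numbers also correlated: untransfected replicate 3 was at 0.350 with si-P2 replicate 1 and at 0.243 with si-P2 replicate 3. This pairing comes from the data and not from the labels.

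The members and the 25 gene lists (808 of 830 entries matched by symbol, 779 distinct genes) were chosen with earlier results of these data known. The text names the 40 highest genes, list members with their highest and lowest levels, the 12 genes higher and 12 lower of largest difference among those called with no overlap and at least 100 normalized counts, and the 10 of largest CV. List members between the extremes were named for their roles, some after their values were seen. Some list members are not reported here. Promoter sequences and annotation are RefSeq's on GRCr8, and no coordinates of that build were joined to the counts. Over the whole table, 77 gene symbols stand on more than 1 Ensembl number, and among the list genes this held for *Sytl2*.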

Additional observations from a re-analysis of the deposited data

Results flagged for a closer look

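In 15 of the 333 groups of 4 untransfected values tested, 1 library lay far from the other 3, and chance alone flags about 1 in 20 groups. Of these, 6 were genes seen in a single library at the level of 1 or 2 reads: *Gal* at 0.604, *Hhex* at 1.21 and *Slc32a1* at 0.604 in replicate 2, *Ifit1* at 1.12 in replicate 3, *Pck1* at 1.70 in replicate 1 and *Slc16a3* at 0.841 in replicate 4. *Cacna1e* was at 8.49 in replicate 1 and at 2.24 to 3.02 in the others.

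The copies *AABR07026317.1* and *Rps15al4* were at 638.55 and 416 in replicate 4, against 0 and 24.8 to 76.4 in the other libraries. Replicate 3 was high for *Hepacam2* (2449, others 1994 to 2041) and *Trpm4* (97.4, others 76.4 to 79.9). Replicate 2 was low for *Arg1* (3265, others 3781 to 3880) and *Txnip* (6671, others 7499 to 7613). *Smim5* was at 182 in replicate 1 (others 223 to 225), and *Chrm3* at 85.8 in replicate 4 (others 111 to 114). *Hepacam2*, *Arg1* and *Smim5* had been selected for no overlap with the 16 transfected libraries. Their odd library therefore also lies below those by selection.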

How the results depend on the processing

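The 14624 genes detected were 17231 when counted as above 0 in any library and 12838 at 10 or more in all 4, and 14686 to 15011 when 1 library was left out. Leaving out 1 library gave the 100 highest genes 23.4% to 24.1% of the total and ranks of 23 to 28 for *Ins1*, 2302 to 2570 for *Ins2*, 622 to 742 for *Abcc8* and 833 to 1052 for *Kcnj11*. The count of 1091 genes called was 1089 with a pseudocount of 0.5, 1007 with no filter, 1074 with equal totals, 1049 with edgeR and 1601 with DESeq2. It was 2484 with the replicate block and 14 with si-Ctrl alone as comparator. Leaving out 1 library gave 461 to 2410, the lowest without untransfected replicate 2 and the highest without si-Ctrl replicate 3. Comparators chosen after seeing the data gave 2857 (si-P1 alone), 166 (si-P2 alone), 1298 (si-P1+2 alone), 33 (si-Ctrl replicates 1, 2 and 4) and 207 (si-Ctrl alone with the replicate block), and the cause was not tested. Of 768 recomputed values of the 24 genes named by difference, over 32 settings, 676 passed, 92 kept their direction without passing and 0 reversed, and 21 of the 24 did not pass against si-Ctrl alone, 12 with the replicate block and 19 without si-Ctrl replicate 3. Against the 4 siRNA groups together the replicate block changed no call among those 24 genes. The alternative per kilobase of transcript was not run, since no transcript lengths were used here. Levels near that of 1 read, 0.604 to 1.70 normalized counts, cannot be ordered at this depth.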
